A study of Mus musculus with 4 samples.

Results

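ADAM proteins (a disintegrin and metalloprotease) are membrane proteins that carry a metalloprotease, a disintegrin and a cysteine-rich domain. One branch of the family is made by male germ cells and sits on the sperm surface, where several of its members have lost the catalytic residues of the protease and act in sperm migration through the oviduct and in contact with the egg. The other branch is found in many tissues and includes the sheddases, which cut the outer part of growth factors, Notch and adhesion molecules off the cell surface. The rule that grouped the 9 genes used where each is known to be expressed and no signal threshold: the testis members Adam1a, Adam2, Adam3 and Adam5, and the others Adam7, Adam9, Adam10, Adam15 and Adam17.

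The study measured RNA of whole mouse testis on 4 Affymetrix arrays, 2 from Tslc1+/+ and 2 from Tslc1-/- males, all C57BL/6J and 16 weeks old. Tslc1 is the older name of Cadm1, a cell adhesion molecule that is itself known to be cut by sheddases. No treatment, deleted exon or pooling of animals is named in the labels, and nothing there ties the 2 arrays of a genotype to different mice. A p-value here therefore measures array-to-array spread, which may be technical. Of the 9 genes, 8 had at least 1 probe set annotated to that gene alone, among 8251 such genes on the array, and they had 12 probe sets. Adam1a, which encodes the alpha subunit of fertilin, was on 2 probe sets that also list the gene Mapkapk5, and was not analysed here. Markers of testis germ cells ranged widely in Tslc1+/+. They ran from 135767 ± 1546 (SD, n = 2) for the elongating spermatid gene Tnp2 to probe sets too dim to test for Sycp3 and Gfra1. No detection calls were used.

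Signals are on the linear scale of the deposited values, and changes are differences of log2(signal + 50), Tslc1-/- minus Tslc1+/+, with a 95% interval from limma. The added 50 makes the change of a dim probe set look smaller than it is. Probe sets with a mean signal of at least 200 were tested, 7975 in all, of which 11 belonged to the 8 genes. Cadm1 was lower in Tslc1-/-, at 3449.5 and 4027.9 in Tslc1+/+ against 775.9 and 604.5 in Tslc1-/- (log2 change -2.36, limma, adjusted p = 1.83e-04). A second Cadm1 probe set read 3960.0 and 3925.2 against 443.5 and 444.9 (log2 change -3.01, limma, adjusted p = 2.31e-05). Both probe sets belong to classes that may bind related transcripts. The array medians lay between 361.5 and 378.

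The genotype comparison asked whether loss of Tslc1 altered these transcripts. None of the 11 tested ADAM probe sets passed an adjusted p of 0.05 in limma, where 1.08% of all tested probe sets passed. At an unadjusted p under 0.05 there was 1 of 11, Adam2, against 10.0% of all tested. The width of the intervals differed with signal. On the 5 tested probe sets of Adam2, Adam3 and Adam5 each interval lay within a 2-fold change either way, from 0.843-fold to 1.63-fold at the outermost bounds. On the 6 probe sets of the other members each interval reached 2-fold in at least 1 direction, from 0.253-fold to 4.32-fold.

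**Figure D1:**
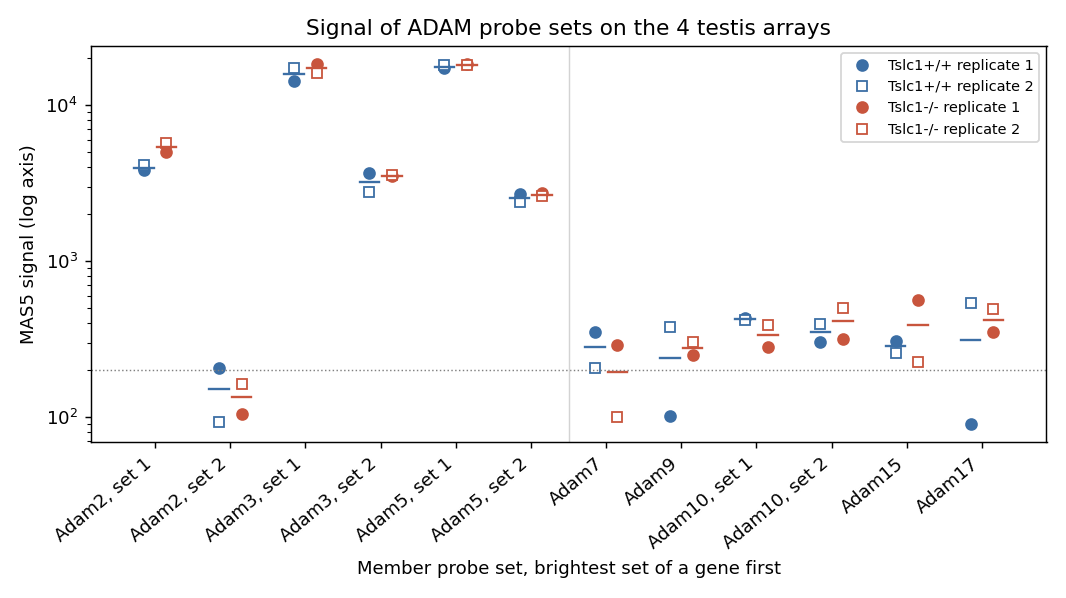
MAS5 signal (log axis) of each ADAM probe set on the 4 arrays; circles are replicate 1, squares replicate 2, short lines the mean of 2 arrays, and the dotted line the signal of 200 required for testing. The tested testis probe sets lie between 2388.1 and 18419.9 and the other members between 90.0 and 559.6.

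Testis members were bright and the others dim. Tested probe sets of Adam2, Adam3 and Adam5 ranked from the 87.5th to the 99.1st percentile of their array, and those of the other 5 genes from the 22.9th to the 59.7th. Probes bind with different strength, so these ranks describe probe sets and do not order the genes by RNA amount. Each gene of the testis group also had a dimmer probe set, as far down as 92.6 for Adam2. In a whole organ, fewer cells of a type and less RNA per cell cannot be told apart.

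Adam2 encodes fertilin beta, a sperm membrane protein without protease activity on which the display of other sperm ADAM proteins depends. Its bright probe set read 3814.9 and 4152.9 in Tslc1+/+, against 4992.8 and 5754.0 in Tslc1-/-. Both Tslc1-/- arrays stood above both Tslc1+/+ arrays, a pattern seen in that direction on 21.5% of all tested probe sets. The log2 change was 0.42 with a standard error of 0.13 (interval 0.15 to 0.70, unadjusted p = 0.00681), and it did not pass over all probe sets (limma, adjusted p = 0.203). By unadjusted p it ranked 267 among the 7975. The other Adam2 probe set was too dim to be tested, at 207.4 and 92.6 in Tslc1+/+, against 104.9 and 163.5 in Tslc1-/-. Its arrays overlapped, and it did not show the difference. It belongs to a class of probe sets that may bind related transcripts.

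Adam3 encodes cyritestin, which sperm need to pass from the uterus into the oviduct and to bind the egg coat. Its bright probe set read 14312.4 and 17407.8 in Tslc1+/+, against 18419.9 and 16144.2 in Tslc1-/-, so the genotypes overlapped. The log2 change was 0.13 (interval -0.12 to 0.38, limma, adjusted p = 0.774). The dimmer probe set read 3696.4 and 2759.6 against 3500.9 and 3555.8, with a change of 0.14 (interval -0.21 to 0.49, limma, adjusted p = 0.813). The 2 probe sets ordered the arrays differently: Tslc1+/+ replicate 1 was the lowest array on the bright one and the highest on the dim one. Both belong to classes of probe sets that may bind related transcripts. Without Tslc1+/+ replicate 1 the bright probe set was at -0.01, and without Tslc1+/+ replicate 2 the dimmer one was at -0.07.

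Adam5, a further testis member of the family, was by its interval the most closely fixed of the genes. Its bright probe set read 17286.2 and 18055.2 in Tslc1+/+, against 18277.1 and 18059.6 in Tslc1-/-. The Tslc1-/- arrays were above, but the nearest arrays of the genotypes were all but equal. The log2 change was 0.04 with a standard error of 0.08, and its interval of -0.14 to 0.22 spans 0.906-fold to 1.17-fold (limma, adjusted p = 0.915). The dimmer probe set read 2678.8 and 2388.1 against 2723.8 and 2597.7, overlapping, with a change of 0.07 (interval -0.25 to 0.39). It was at -0.01 without Tslc1+/+ replicate 2, and it belongs to a class that may bind related transcripts. In the annotation of GRCm38.p6, Adam3, Adam5 and Adam9 lie in 1 stretch of chromosome 8. A single gene without a protein product separates Adam3 from Adam5, and the family member Adam32 separates Adam5 from Adam9.

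**Figure D2:**
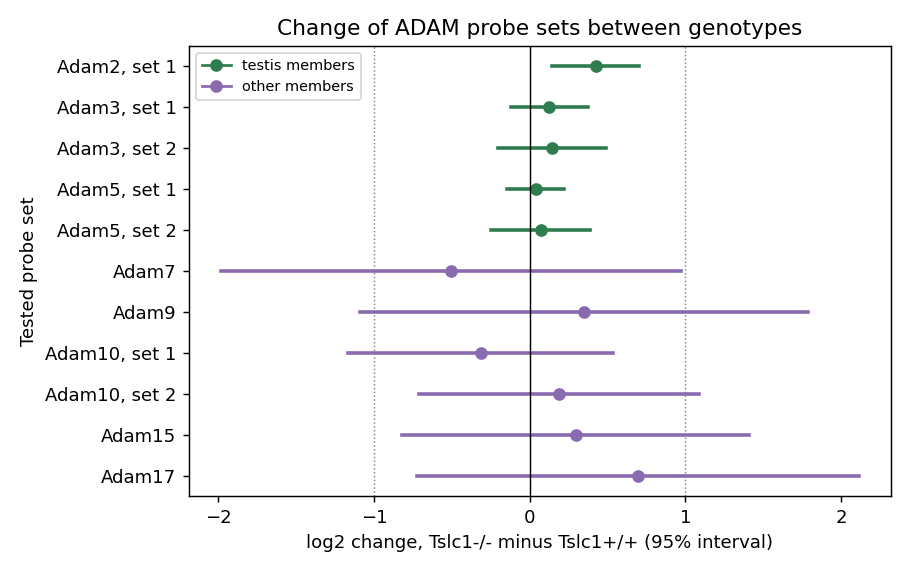
Log2 change (Tslc1-/- minus Tslc1+/+, n = 2 arrays each) of the 11 tested probe sets with the 95% interval from limma; dotted lines mark a 2-fold change. Intervals of testis members are 0.37 to 0.70 wide and those of the other members 1.70 to 2.96.

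The testis members were compared with each other within arrays. Log2 signal of Adam2 minus that of Adam3 was -1.89 and -2.05 in Tslc1+/+, against -1.87 and -1.48 in Tslc1-/-. The difference was higher on both Tslc1-/- arrays, by 0.30 on average, but Tslc1+/+ replicate 1 and Tslc1-/- replicate 1 were close to each other. It was 0.10 without Tslc1-/- replicate 2 and 0.49 without Tslc1-/- replicate 1. The exact two-sided permutation test gave p = 0.333, the smallest that 2 against 2 arrays allow (0.667 after Benjamini-Hochberg adjustment over the 2 pairs compared), so this design could not have passed the threshold.

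Germ cell markers were set beside these genes, because sperm ADAM transcripts appear in spermatocytes and spermatids. The marker lists were chosen with earlier results of these data known and are not independent evidence of a direction. Adam2, Adam3 and Adam5 had a median change of 0.13, against 0.02 for all tested genes. None of 5 tested spermatogonial genes passed (median 0.26). That median counts Stra8, which had the signal required only through its Tslc1-/- arrays (mean 445.2, against 127.3 in Tslc1+/+). The 7 tested spermatocyte genes had a median of 0.01, with 1 that fell, the germ cell glycolytic enzyme Pgk2 (-0.78, limma, adjusted p = 0.00495). Of 9 round spermatid genes 4 fell and 5 did not pass, with a median of -0.27. Of 11 elongating spermatid genes 6 fell and 5 did not pass, with a median of -0.51. Among all tested probe sets 0.84% fell.

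Summed over the list, elongating spermatid markers read 590817 and 594577 in Tslc1+/+, against 398612 and 425069 in Tslc1-/-, while round spermatid markers went from 207093 and 214682 to 146839 and 148211. The summed spermatocyte markers overlapped between genotypes, at 124644 to 131663 in Tslc1+/+ and 117472 to 127664 in Tslc1-/-. Such sums mostly follow the brightest genes of a list. In Tslc1+/+ the spermatocyte genes Ldhc and Ybx2 had means of 65042 and 34196. The round spermatid genes Gsg1 and Tcp11 had means of 74629 and 72215 there, and the elongating spermatid genes Tnp2 and Gapdhs 135767 and 118502. Odf1, an outer dense fibre protein of the sperm tail, had a change of -0.85 (limma, adjusted p = 3.00e-04). The round spermatid membrane protein gene Gsg1 had one of -0.74 (limma, adjusted p = 5.16e-04). The spermatid markers that did not pass had changes from -0.46 for Capza3 to 0.18 for the protamine gene Prm2. Among them were the protamine gene Prm1 at -0.13 and the acrosin gene Acr at 0.15. Only Acr and Prm2 were positive. The part of cell composition in the ADAM values was not tested. With 1 array left out, the round spermatid count was 1 to 2, the elongating count 4 to 6 and the spermatocyte count 0 to 1. The lowest round and elongating counts were those without Tslc1+/+ replicate 2. Without the intensity trend of the spread, all 3 counts were 0.

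**Figure D3:**
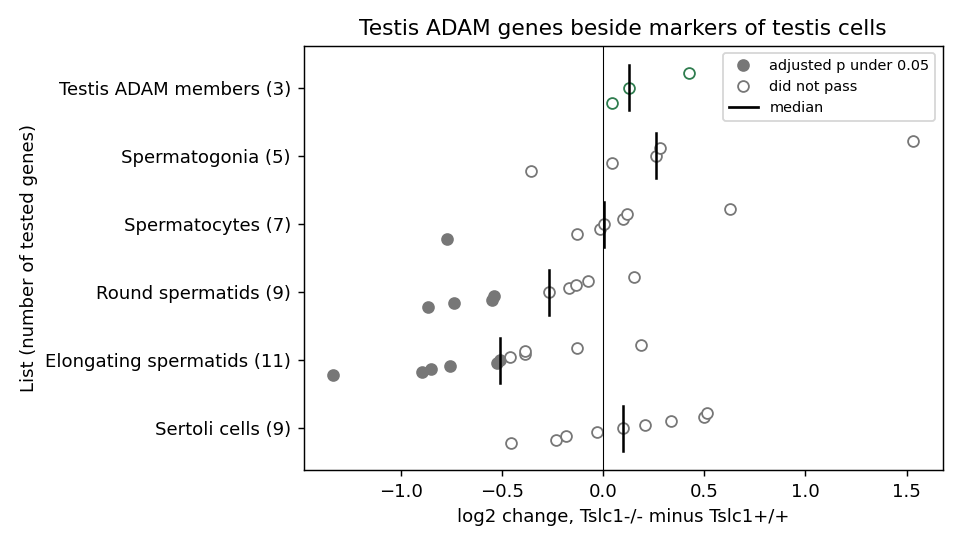
Log2 change (Tslc1-/- minus Tslc1+/+) of Adam2, Adam3 and Adam5 beside the tested marker genes of testis cell types, 1 point per gene (brightest probe set); filled points passed an adjusted p of 0.05 and vertical bars are medians. The ADAM genes lie from 0.04 to 0.42, while the medians are 0.01 for spermatocytes, -0.27 for round spermatids and -0.51 for elongating spermatids.

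Among the other members, Adam10 and Adam17 are the main sheddases, known for cutting Notch and for releasing tumour necrosis factor and ligands of the epidermal growth factor receptor. The first Adam10 probe set read 431.8 and 421.3 in Tslc1+/+, against 282.2 and 391.4 in Tslc1-/-. Both Tslc1-/- arrays were below, as on 18.5% of all tested probe sets, with a change of -0.32 (interval -1.17 to 0.53, limma, adjusted p = 0.833). It was -0.11 without Tslc1-/- replicate 1 and -0.52 without Tslc1-/- replicate 2. The second read 301.4 and 396.9 against 317.3 and 503.3, with a change of 0.19 (interval -0.71 to 1.09). The 2 Adam10 probe sets, of almost equal mean signal (381.7 and 379.7), had opposite signs, and no direction can be given for the gene. The second was at -0.11 without Tslc1-/- replicate 2.

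Adam17 read 90.0 and 537.0 in Tslc1+/+, against 349.3 and 488.9 in Tslc1-/-. Tslc1+/+ replicate 1 stood far below the other 3 arrays, and the Tslc1-/- arrays lay between those of Tslc1+/+. The log2 change of 0.69 had an interval of -0.72 to 2.11 (limma, adjusted p = 0.783), and without that array it was -0.34. The log2 signal of Adam10 minus that of Adam17 was 1.78 and -0.32 in Tslc1+/+, against -0.27 and -0.29 in Tslc1-/-. Again 1 array departed, and the exact two-sided permutation p was 1. The average difference between genotypes was -1.01, and without Tslc1+/+ replicate 1 it was 0.04.

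Adam9 (meltrin gamma) and Adam15 (metargidin) are active proteases of many tissues. Adam9 read 101.6 and 377.8 in Tslc1+/+, against 250.6 and 300.3 in Tslc1-/-. As for Adam17, Tslc1+/+ replicate 1 was the lowest array and Tslc1+/+ replicate 2 the highest. The change was 0.35 (interval -1.09 to 1.79, limma, adjusted p = 0.903), and it was -0.40 without Tslc1+/+ replicate 1. Adam15 read 308.5 and 258.7 against 559.6 and 223.4. Here Tslc1-/- replicate 1 was the high array and Tslc1-/- replicate 2 the lowest of all, with a change of 0.30 (interval -0.82 to 1.41, limma, adjusted p = 0.893) that was -0.28 without Tslc1-/- replicate 1.

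Adam7 is known as an ADAM of the epididymis, without protease activity, that is passed to sperm there. In these testes it read 352.5 and 205.2 in Tslc1+/+, against 290.3 and 100.1 in Tslc1-/-. The genotypes overlapped, and the change of -0.50 had the widest interval of all members (-1.98 to 0.97, limma, adjusted p = 0.851). It was 0.09 without Tslc1-/- replicate 2. Of 12 epididymis markers 4 were on the array and 1 was tested. Lcn5 was at 16.1 to 36.1 and Defb1 at 32.1 to 171.2. The brightest Gpx5 probe set was at 38.8 to 310.7. Lcn2, a lipocalin that other cells make as well, read 3528.9 and 3497.7 in Tslc1+/+ against 5023.5 and 5228.1 in Tslc1-/- (log2 change 0.54, limma, adjusted p = 0.0709). It makes up most of the list's sum of 3702 to 3957 in Tslc1+/+ and 5419 to 5466 in Tslc1-/-. None of the 4 was at 0, and the part of epididymal tissue in the Adam7 value was not tested.

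The 5 other members had a median change of 0.30, which was -0.30 without Tslc1+/+ replicate 1 and -0.11 without Tslc1-/- replicate 1. Intervals were wide at such signals: tested probe sets from 200 to 500 had a median interval width of 2.30 on the log2 scale, against 0.79 from 1000 to 5000 and 0.40 above 10000. Marker sums of cell types that could hold these transcripts were 3972 to 4484 in Tslc1+/+ and 4513 to 5475 in Tslc1-/- for 8 macrophage genes, and 31653 to 33574 against 31804 to 32256 for 9 Sertoli cell genes. None of the 5 tested macrophage genes and none of the 9 tested Sertoli genes passed, and their medians were 0.26 and 0.10. For 7 endothelial genes the sums were 2921 to 3378 in Tslc1+/+ and 2239 to 2363 in Tslc1-/-, with none of the 4 tested passing and a median of -0.51. The 4 tested genes split, with Pecam1 lower and Kdr at -1.13 against Vwf at 0.22 and Eng at 0.11. Pecam1 read 911.0 and 687.5 in Tslc1+/+ against 244.8 and 117.4 in Tslc1-/-. It had the mean signal required for testing only through its Tslc1+/+ arrays, so no fold is given, but the median counts it. For 7 peritubular myoid genes the sums were 17903 to 19953 and 14395 to 15215, with a median change of -0.18. That median counts Cnn1, which had the signal required only through its Tslc1+/+ arrays (mean 338.1, against 123.2 in Tslc1-/-). Of the 7, 1 fell, the actin gene Actg2, and 2 had a positive change. Actg2 makes up most of that sum, at 11737.9 and 12935.6 in Tslc1+/+ against 8411.8 and 8103.5 in Tslc1-/-. Its probe set belongs to a class that may bind related transcripts. For 8 Leydig cell genes the sums were 15525 to 15654 and 13256 to 14891, with none passing and a median of 0.03. In that list Cyp17a1 read 4673.3 and 5229.1 in Tslc1+/+ against 2916.5 and 3733.3 in Tslc1-/- (limma, adjusted p = 0.127). It was lower without overlap, as on 18.5% of all tested probe sets. Hsd3b6 was higher without overlap, as on 21.5%, at 345.1 and 328.3 against 806.0 and 719.7 (limma, adjusted p = 0.173). The Hsd3b6 probe set is of a class that may bind related transcripts. Of the 8 Leydig cell genes 4 had a positive change. The brightest, Nr5a1, overlapped between genotypes. The part of these cell types in the values of the other members was not tested.

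**Figure D4:**
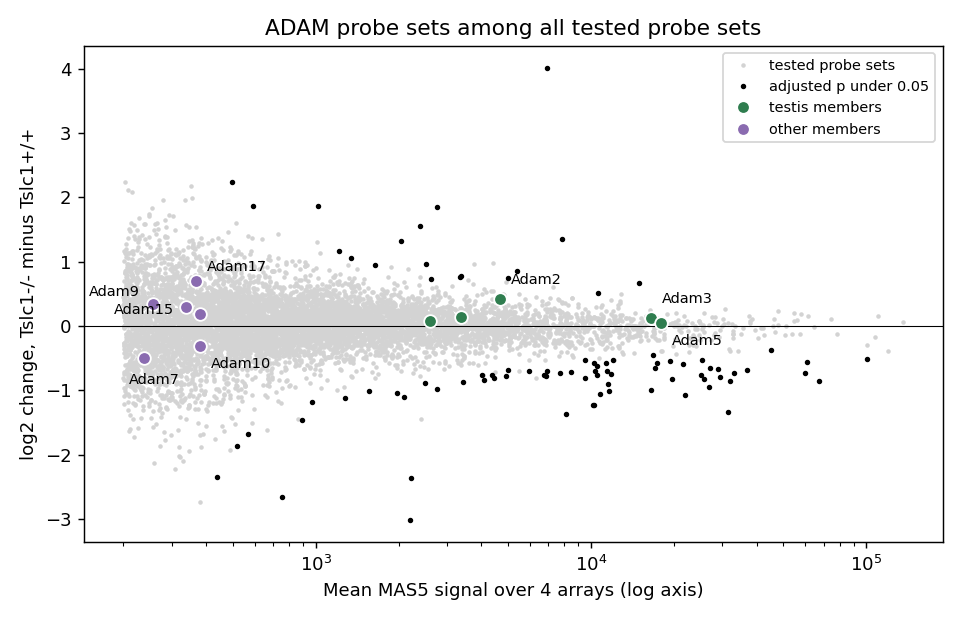
Log2 change (Tslc1-/- minus Tslc1+/+) against mean signal (log axis) of the 7975 tested probe sets; black points passed an adjusted p of 0.05, green are testis ADAM members, purple the other members. None of the 11 ADAM probe sets is among the black points, and the changes of the testis ones run from 0.04 for Adam5 to 0.42 for Adam2.

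Further ADAM genes were taken from a list of the family. Of 25 listed, 9 had a probe set of their own and 4 were bright enough to test, with none passing and a median change of 0.19. Adam4, which like Adam2 is transcribed in testis, read 1017.3 and 806.4 in Tslc1+/+, against 1455.8 and 1158.8 in Tslc1-/-. Both Tslc1-/- arrays were above, as on 21.5% of all tested probe sets. The change was 0.50 (limma, unadjusted p = 0.0461, adjusted p = 0.482), and 10.0% of all tested had an unadjusted p under 0.05. Adam28, the brightest of them, read 2358.3 and 1594.6 against 2535.7 and 1462.2, a change of -0.01 (limma, adjusted p = 0.995). Its probe set belongs to a class that may bind related transcripts. Adam8, Adam12, Adam19, Adam22 and Adamdec1 were below the signal required.

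Sperm ADAM proteins fold with help of chaperones of the endoplasmic reticulum, of which calmegin is specific to germ cells. Of 13 listed chaperone and quality control genes 7 were on the array and 6 were tested, with none passing and a median change of -0.05. The calmegin gene Clgn read 15119.3 and 16034.2 in Tslc1+/+, against 14577.4 and 14495.6 in Tslc1-/-. The Tslc1-/- arrays were lower, by a change of -0.10 (interval -0.29 to 0.09, limma, adjusted p = 0.770), so this transcript was as closely fixed as that of Adam5. A dimmer Clgn probe set, of a class that may bind related transcripts, was at -0.58. Ace, the angiotensin-converting enzyme, whose testis form is known to affect ADAM3 on sperm, read 1438.5 and 1447.2 against 1136.7 and 1103.9. Its change was -0.35 (limma, adjusted p = 0.580) on a probe set of a class that may bind related transcripts, and -0.22 on the next brightest.

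ADAM proteins are activated by proprotein convertases and held back by tissue inhibitors of metalloproteases. All 11 of the 17 listed processing and inhibitor genes that were on the array were tested, and none passed (median change 0.11). Pcsk4, the convertase of germ cells that processes sperm ADAM proteins, read 4222.2 and 3492.1 in Tslc1+/+, against 3492.0 and 4948.4 in Tslc1-/-, overlapping (0.11, limma, adjusted p = 0.873). That probe set belongs to a class that may bind related transcripts, and the other Pcsk4 probe set, not of such a class, was at -0.14. The inhibitor gene Timp1 read 784.4 and 1521.2 against 1488.0 and 2128.6, a change of 0.68 with overlapping genotypes (limma, adjusted p = 0.468). It was 0.22 without Tslc1+/+ replicate 1 and 1.13 without Tslc1+/+ replicate 2.

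Integrins and tetraspanins are partners of ADAM disintegrin domains. Of 8 listed 7 were on the array and 6 were tested, with none passing and a median of -0.05. The integrin gene Itgb1 read 3524.9 and 3372.7 in Tslc1+/+, against 1807.8 and 3048.9 in Tslc1-/-. Tslc1-/- replicate 1 was the low array (change -0.54, limma, adjusted p = 0.404). The change was -0.17 without that array and -0.91 without Tslc1-/- replicate 2, and a second Itgb1 probe set was at -0.24. Both Itgb1 probe sets belong to classes that may bind related transcripts. The tetraspanin gene Cd9 read 55.8 and 117.7 against 428.2 and 419.9. It had the mean signal required for testing only through its Tslc1-/- arrays, and no fold is given.

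Sheddase substrates were the last group. Of 23 listed 19 were on the array and 12 were tested. The only one that passed was Cadm1, the targeted gene itself, and the other 11 did not. The median of the 12 was -0.03. App, the amyloid precursor protein gene and the brightest of them, read 4203.0 and 4707.8 in Tslc1+/+, against 5243.5 and 5308.1 in Tslc1-/- (0.24, limma, adjusted p = 0.539).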

How the data were processed

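Each of the 4 Affymetrix mouse arrays held 12488 probe sets. Per the labels' series text, the authors reverse-transcribed RNA from an oligo(dT) primer, hybridised biotinylated cRNA and computed signals with Microarray Suite 5.0 (MAS5 in the submitters' processing notes). The deposited intensity of each probe set is linear and was scaled per array to a target of 1000, so a change in total RNA cannot be seen. Means after 2% trimming at each end were 1001 on the arrays.

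Genes came from the platform annotation (10833 of 12422 probe sets without the 66 controls list 1 gene, 396 several, 1193 none; 10817 matched GRCm38.p6 by Entrez identifier). The test was limma 3.58.1 in R 4.3.3 on log2(signal + 50) with an intensity trend, Benjamini-Hochberg adjusted over all 7975 tested probe sets, and was tested on simulated data. The brightest tested probe set stands for a gene; values are mean ± SD. The precision is limited by 2 arrays per genotype. All probe sets of the members are given, and of each pathway list the brightest gene, the one with the smallest p and any that passed; other genes were chosen after their values were seen. Members and lists were chosen with earlier results of these data known. Alternatives were other pseudocounts, signal filters, normalizations, a spread without trend, no cross-hybridising probe sets, a replicate block and each array left out.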

Additional observations from a re-analysis of the deposited data

How the results depend on the processing

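No ADAM probe set passed in any of the 13 alternatives that tested it, and the smallest adjusted p was 0.0608, for Adam2 with the replicate number as a block (limma). Without the block, adjusted p for Adam2 ran from 0.159 to 0.638. Same-numbered arrays did not deviate together (r = -0.0012 across tested probe sets), so no general pairing by number was seen. A pairing that touches only part of the probe sets was not tested. The count over all probe sets was 86, and it was 239 with the replicate block, 0 without the intensity trend (limma, 638 at an unadjusted p under 0.05) and 37 to 43 with 1 array left out. The change of Adam2 was positive in all 13, from 0.32 to 0.53, and that of the bright Adam5 probe set from 0.01 to 0.16. With quantile normalization the bright Adam5 probe set was at 0.16, against 0.04 in the main fit. The bright Adam3 probe set was then at 0.23, against 0.13.

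Signs turned only with an array left out, where the lone array of a genotype is assumed to vary like the other genotype. The ranges were then -0.014 to 0.27 and -0.066 to 0.35 for the bright and dim Adam3 probe sets, -0.0100 to 0.15 for the dim Adam5, -1.09 to 0.086 for Adam7 and -0.40 to 1.10 for Adam9. They were -0.11 to 0.48 for the second Adam10, -0.28 to 0.87 for Adam15, -0.34 to 1.73 for Adam17, -0.40 to 0.38 for Adam28 and -0.14 to 0.36 for Pcsk4. The Adam10 minus Adam17 difference ranged from -2.06 to 0.040. The median of testis members ranged from 0.0090 to 0.27 and that of the others from -0.30 to 0.24, and the latter was 0.19 with a pseudocount of 200. No other member had a mean signal of 500, so no median of theirs was had at that filter. Cadm1 did not pass without the trend (limma, adjusted p = 0.275). The cause of these shifts was not tested beyond the array left out.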
